A study of Mus musculus with 2 samples.

Results

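The 40 genes described here encode the machinery that divides a cell, from the kinases and cyclins that start mitosis to the motors, scaffolds and GTPases that cut the daughter cells apart. They were listed by gene symbol and function, with no measured value in the rule, and all 40 were found among the 21461 nuclear protein-coding genes of the deposited gene tables. The members and the comparison lists were, however, chosen with earlier results of these data known. Contrasts in level between the lists are therefore descriptions. The RNA came from primary cells labelled megakaryocyte, taken from adult male C57BL/6J mice at 5 to 6 weeks of age, with health state given as unknown and no transgene, mutant allele or treatment named. Total RNA depleted of ribosomal RNA was sequenced from 100 ng of input in 2 libraries with a labelled size range of 221 to 1000 nt and 200 to 1000 nt, called library 1 and library 2 after their labelled biological replicate numbers. Both carry the same donor entry and form 1 group, so there is no second condition, and nothing in the labels says whether they came from separate animals or separate isolations. The spread between them may therefore be technical.

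The deposited tables held 42703213 estimated read counts for library 1 and 50532821 for library 2. Nuclear protein-coding genes received 37377787 and 44809299 of these counts and took 24.0% and 26.8% of all TPM (an abundance measure, counts divided by effective transcript length and scaled to a common total per table), so a gene at a constant share of their TPM would read 1.12-fold higher in library 2. The labelled cell type was checked against marker genes. Of 15 megakaryocyte markers, 14 were under 1 TPM in both libraries, and the summed TPM of the 15 was 3.84 and 6.22. No count in either library was found for 4 of the 15, including Gp5, Gp6 and Mpig6b. The highest, Itga2b, stood at 3.26 and 4.89 TPM. The libraries are therefore called by their number or as labelled megakaryocyte. Of the other marker lists, the 2 highest genes were S100a8 (7266 and 7929 TPM) and S100a9 (4471 and 3427) for neutrophils, Lyz2 (5969 and 8031) and Ly6c2 (768 and 901) for monocytes and macrophages, and Ctsg (70.2 and 76.9) and Mpo (68.0 and 64.9) for neutrophil precursors. For erythroid cells they were Hba-a2 (67.0 and 27.3) and Hbb-bt (12.8 and 10.4), for T and NK cells Gzma (12.1 and 5.34) and Cd3g (9.87 and 7.17), for stem and progenitor cells Cd34 (5.27 and 5.77) and Flt3 (4.03 and 3.87), and for B cells Cd79b and Cd22, with a median of 0.04 TPM over the B cell list. These are bulk libraries, in which fewer dividing cells and less of a transcript per cell cannot be told apart, and the cell type in which the mitotic RNA was made was not tested.

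As background, mitosis is driven by cyclin-dependent kinase 1 with cyclins A and B, by the Polo-like and Aurora kinases, and by spindle motors that attach and align the chromosomes. A checkpoint holds the anaphase-promoting complex in check until every kinetochore is attached. That complex then marks securin and cyclin B for destruction, separase cuts cohesin, and a RhoA-driven actomyosin ring together with the central spindle divides the cytoplasm. Megakaryocytes are known for endomitosis, in which cells enter mitosis repeatedly but do not complete cytokinesis and so become polyploid, a change linked to reduced activity of Ect2 and RhoA at the cleavage furrow. Many mitotic genes are transcribed late in the cell cycle through a promoter element called the cell cycle genes homology region (CHR), which is bound by MuvB-containing complexes, and through CCAAT boxes, which are bound by NF-Y.

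Since this element is a feature of many mitotic genes, the promoters are shown before their levels. RefSeq promoters (GRCm38.p6, 250 bases before to 50 after the start) were matched by symbol for 35 of the 40 genes; Ccna2, Aurkb, Incenp, Kif20a and Tpx2 had no entry. On either strand, 25 of 35 (71.4%) held a CHR word, TTTGAA or TTCGAA, against 21.7% of all 27025 genes with a promoter in the table. The words lay close to the start: 22 of 35 (62.9%) had one wholly within 40 bases of it, against 4.96% of all genes. CCAAT was found in 24 (68.6%), against 41.1%, and 21 (60.0%) held both words, against 8.61%. With each genome position counted once, these promoters held 35 CHR matches, of which 27 were on the gene's own strand or palindromic, and 1 overlapped a CCAAT match, in Cdca8. The following stretches, from 100 bases before to 30 after the start, written 5′ to 3′ on the gene's strand, show the spacing in 9 genes from several steps of division. Capitals mark the CHR words TTTGAA and TTCGAA, their reverse complement TTCAAA, and CCAAT with its reverse complement ATTGG.
Cdk1 (chr10:69352883-69353012, minus strand): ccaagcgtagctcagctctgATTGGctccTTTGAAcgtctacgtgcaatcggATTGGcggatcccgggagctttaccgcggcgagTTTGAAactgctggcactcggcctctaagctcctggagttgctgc
Ccnb2 (chr9:70421525-70421654, minus strand): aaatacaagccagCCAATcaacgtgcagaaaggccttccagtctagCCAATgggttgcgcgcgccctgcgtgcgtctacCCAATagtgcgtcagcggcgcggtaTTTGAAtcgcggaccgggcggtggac
Cdc20 (chr4:118437314-118437443, minus strand): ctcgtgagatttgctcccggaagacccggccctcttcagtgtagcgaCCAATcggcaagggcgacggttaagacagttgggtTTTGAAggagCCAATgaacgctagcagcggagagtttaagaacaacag
Bub1 (chr2:127831830-127831959, minus strand): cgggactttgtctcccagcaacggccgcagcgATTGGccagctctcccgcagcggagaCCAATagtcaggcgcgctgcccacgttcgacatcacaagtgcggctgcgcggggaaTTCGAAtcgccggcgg
Cenpf (chr1:189688057-189688186, minus strand): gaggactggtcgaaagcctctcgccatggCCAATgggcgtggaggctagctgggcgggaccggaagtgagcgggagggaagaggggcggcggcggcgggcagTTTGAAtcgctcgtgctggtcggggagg
Kif11 (chr19:37376282-37376411, plus strand): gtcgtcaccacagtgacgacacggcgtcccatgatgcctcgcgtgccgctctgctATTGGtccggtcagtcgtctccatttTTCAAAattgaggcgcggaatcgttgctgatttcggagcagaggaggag
Racgap1 (chr15:99651627-99651756, minus strand): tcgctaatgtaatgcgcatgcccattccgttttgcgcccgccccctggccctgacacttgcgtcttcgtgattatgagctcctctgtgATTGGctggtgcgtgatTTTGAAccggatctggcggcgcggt
Kif23 (chr9:61946770-61946899, minus strand): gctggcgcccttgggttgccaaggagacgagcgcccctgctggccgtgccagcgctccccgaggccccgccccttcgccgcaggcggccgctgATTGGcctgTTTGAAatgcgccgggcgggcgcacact
Top2a (chr11:99024160-99024289, minus strand): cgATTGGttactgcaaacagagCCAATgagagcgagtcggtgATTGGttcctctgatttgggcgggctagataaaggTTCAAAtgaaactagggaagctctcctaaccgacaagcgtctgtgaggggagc

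In Cdc20, Kif23 and Racgap1 a CCAAT word and a CHR word stood close together near the start, and in Bub1 the palindromic form TTCGAA lay after it. The next pair shows genes of the same machinery without a CHR word, Ccnb1, which held 2 CCAAT words in this stretch, and Rhoa, a GTPase used throughout the cell cycle, which held neither.
Ccnb1 (chr13:100786457-100786586, minus strand): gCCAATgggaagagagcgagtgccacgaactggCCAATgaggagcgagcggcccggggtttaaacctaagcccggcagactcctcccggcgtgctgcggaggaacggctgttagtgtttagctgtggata
Rhoa (chr9:108306060-108306189, plus strand): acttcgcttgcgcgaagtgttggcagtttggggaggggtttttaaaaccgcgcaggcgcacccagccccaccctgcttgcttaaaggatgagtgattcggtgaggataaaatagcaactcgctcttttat
The genes without a CHR word were Birc5, Ccnb1, Cenpe, Cit, Fzr1, Mad2l1, Nuf2, Plk4, Pttg1 and Rhoa. Only TTTGAA and TTCGAA were searched, so any other form of the element in these promoters would be missed. By step, and among genes with a promoter, the word was found in 4 of 4 spindle genes and 2 of 2 genes of mitotic chromosomes, in 6 of 9 checkpoint and anaphase genes, 5 of 7 cytokinesis genes, 4 of 6 kinases and cyclins, 3 of 5 kinetochore genes and 1 of 2 passenger genes. For Kif2c and Cdca8, both counted here, the matched promoter lay inside the gene as annotated. That of Kif2c spanned chr4:117178723-117179022, with the 5′ end of the gene at 117182639. That of Cdca8 spanned chr4:124936868-124937167, with the 5′ end of the gene at 124939311. The levels of genes with and without the word were similar: the median of mean TPM was 28.3 with the word (25 genes, 3.29 to 182) and 28.4 without it (10 genes, 5.86 to 158). A match is a description of the letters and not a test of binding. The E2F words TTTCCCGC, TTTCGCGC, TTTGCCGC and TTTGGCGC, typical of genes switched on at the start of DNA replication, were found in 2 of 35 (5.71%), against 2.61% of all genes. For 36 of 44 DNA replication genes with a promoter the shares were the other way round, with E2F words in 15 (41.7%) and CHR words in 7 (19.4%). The 133 further mitosis and cytokinesis genes with a promoter, of 162 listed, lay between, with CHR words in 55 (41.4%) and E2F words in 12.8%, and among 73 cell type markers a CHR word was found in 20.5%.

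**Figure D1:**
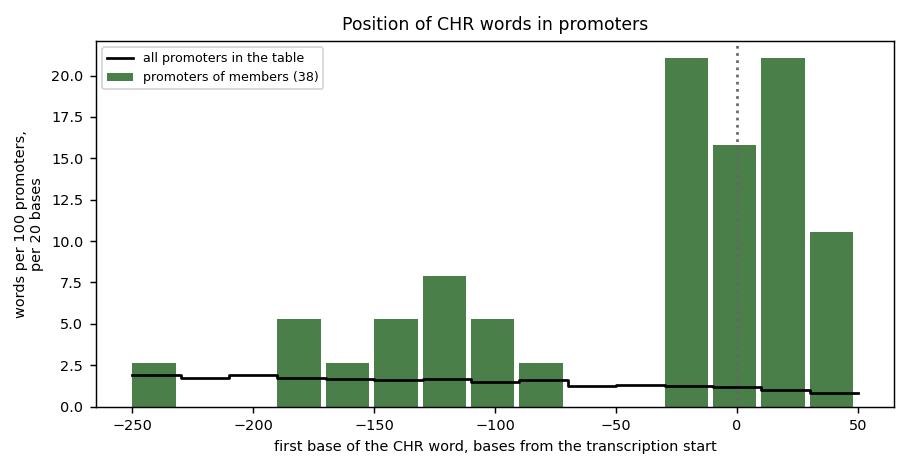
Number of CHR words (either strand) per 100 promoters in each 20 bases, by distance in bases from the transcription start (dotted line), for the 38 promoters of the mitosis and cytokinesis genes (bars; overlapping promoters of a gene count separately) and all promoters of the RefSeq table (black line). In 22 of 35 genes with a promoter a word lay wholly within 40 bases of the start, against 4.96% of all genes.

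All 40 genes were expressed in both libraries. The lowest, Espl1, had a higher TPM than 66.7% of nuclear protein-coding genes, and the highest, Top2a, than 99.0%. Their median was 28.8 TPM (28.6 in library 1 and 29.0 in library 2), against 0.28 TPM over all nuclear protein-coding genes and 3.95 over the 13335 of them above 0. At 10 TPM or more in both libraries were 36 of 40 (90%), against 16.9% of all and 27.1% of those above 0, and at 50 TPM or more 7 of 40 (17.5%), against 3.26%. Together the 40 genes took 0.623% and 0.586% of the TPM in nuclear protein-coding genes, and Top2a, Rhoa and Mki67 held 31.2% and 30.2% of that. The median coefficient of variation between the libraries was 7.36%. Across the 40 genes, the log2 TPM of the libraries had a Pearson r of 0.988, a value over genes, which are not independent replicates.

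**Figure D2:**
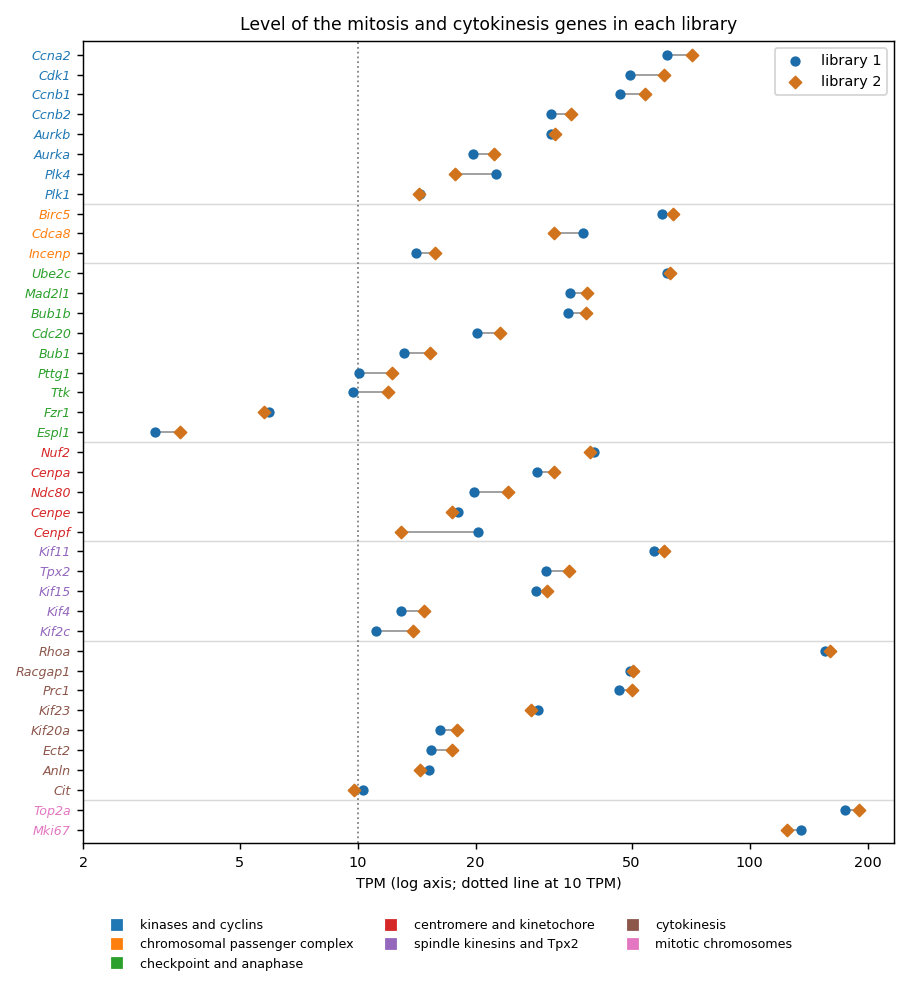
Level of each of the 40 genes, as TPM on a log axis, in library 1 (circles) and library 2 (diamonds), grouped by step, with a dotted line at 10 TPM. Top2a, Rhoa and Mki67 lie above 100 TPM and only Espl1 and Fzr1 lie below 10 TPM in both libraries, and the widest gap between libraries is that of Cenpf, 20.3 against 12.9 TPM.

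The kinases and cyclins that start mitosis ranged from 14.4 to 66.3 TPM (median of gene means 32.3). Ccna2, the cyclin of S phase and mitotic entry, was highest at 61.5 TPM in library 1 and 71.2 in library 2 (16358 and 21453 counts, mean 66.3 ± 6.82, SD, n = 2). Cdk1, the catalytic kinase (chr10:69335146-69352938, mm10), stood at 49.4 and 60.4 TPM (3634 and 4472 counts). Its partner cyclin B1 gene, Ccnb1, stood at 46.6 and 54.1 TPM (6924 and 9446 counts), and the second B-type cyclin gene, Ccnb2, at 31.1 and 35.0 (4102 and 5204). The order Ccnb1 above Ccnb2 held in both libraries, at ratios of 1.5 and 1.55. The ranges of Cdk1 and Ccnb1 overlapped, with Cdk1 the higher in each library by gene totals. Among the mitotic kinases Aurkb, which works at centromeres and the midzone, stood at 31.1 and 31.9 TPM (4748 and 5731 counts), and Aurka, the spindle pole kinase, at 19.8 and 22.3 (3104 and 3956). Plk4, which starts centriole duplication, stood at 22.6 and 17.7 TPM (4928 and 5147 counts), and its range overlapped that of Aurka. Plk1, which acts from mitotic entry to cytokinesis, was lowest of the group by gene totals and repeated closely, at 14.4 and 14.3 TPM (2858 and 3207 counts).

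The chromosomal passenger complex, which carries Aurkb to centromeres and then to the central spindle, was unequal in its RNA. Birc5, encoding survivin, stood at 59.7 and 63.8 TPM (4796 and 5736 counts). Cdca8, encoding borealin, stood at 37.6 and 31.6 TPM (4204 and 4487 counts), and Incenp, the scaffold that binds Aurkb, at 14.1 and 15.7 (4225 and 5338). The order Birc5, then Cdca8, then Incenp held in both libraries, with Birc5 4.24 and 4.06 times as high as Incenp.

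Genes of the spindle checkpoint and of anaphase had the lowest median of any step, 14.3 TPM, and the widest relative range, 3.29 to 62.0 TPM. Ube2c, the ubiquitin-conjugating enzyme of the anaphase-promoting complex, was highest at 61.4 and 62.6 TPM (4584 and 5231 counts). The checkpoint proteins Mad2 and BubR1 followed: Mad2l1 stood at 34.8 and 38.5 TPM (4324 and 5376 counts) and Bub1b at 34.4 and 38.3 (11280 and 14484). These levels did not differ beyond their spread, with Mad2l1 slightly the higher in each library. Cdc20, the mitotic activator of the anaphase-promoting complex, stood at 20.2 and 23.1 TPM (3014 and 3918 counts). Fzr1, encoding Cdh1, the activator that takes over at mitotic exit and in G1, was far lower at 5.96 and 5.76 TPM (1461 and 1658 counts), so that Cdc20 was 3.38 and 4.00 times as high, or 5.31 and 5.27 times by protein-coding transcripts alone. The kinase genes Bub1, at 13.2 and 15.3 TPM (3739 and 4323 counts), and Ttk, which starts checkpoint signalling, at 9.72 and 12.0 (2526 and 3479), lay near Pttg1, the securin gene, at 10.1 and 12.2 (511 and 714). Espl1, encoding separase (chr15:102296266-102324357), was the lowest of all 40 genes at 3.05 and 3.52 TPM (1960 and 2565 counts, mean 3.29 ± 0.332, SD, n = 2). The TPM of Espl1 was thus 0.303 and 0.288 times that of Pttg1, whose product inhibits separase.

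At the centromere and kinetochore, Nuf2 was highest at 40.1 and 39.2 TPM (7558 and 8370 counts). Its partner in the microtubule-binding Ndc80 complex, Ndc80, stood at 19.8 and 24.2 TPM (3914 and 5420 counts), a ratio to Nuf2 of 0.492 and 0.617, so the subunits did not have equal RNA levels. Cenpa, encoding the histone H3 variant that marks centromeres, stood at 28.7 and 31.6 TPM (3050 and 3768 counts). The kinetochore motor gene Cenpe stood at 18.1 and 17.5 TPM (13741 and 15069 counts). Cenpf (chr1:189640606-189688086), a large kinetochore protein of late cell cycle stages, stood at 20.3 and 12.9 TPM (13185 and 13969 counts), the largest relative spread of the 40 genes, at a coefficient of variation of 31.7%.

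Of the spindle motors, Kif11, the kinesin that pushes the poles apart, was highest at 56.9 and 60.6 TPM (26180 and 31635 counts). Tpx2, which activates Aurka and nucleates spindle microtubules, stood at 30.3 and 34.6 TPM (10354 and 13395 counts). Kif15, a kinesin that can stand in for Kif11, stood at 28.5 and 30.4 (13088 and 15857). Their ranges overlapped, with Tpx2 the higher in each library. Kif4, the chromokinesin, stood at 12.9 and 14.7 TPM (5538 and 7340 counts), and Kif2c, a microtubule depolymerase at centromeres, at 11.2 and 13.9 (2880 and 4049). These ranges overlapped as well, with Kif4 the higher in each library by gene totals.

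All 8 cytokinesis genes were detected, and Cit alone dipped under 10 TPM. Rhoa (chr9), the GTPase that builds the contractile ring and that also controls the cytoskeleton outside division, stood at 155.6 and 160.7 TPM (29567 and 34890 counts, mean 158 ± 3.54, SD, n = 2). Its activator at the furrow, Ect2 (chr3:27097222-27153878), stood at 15.4 and 17.5 TPM (4302 and 5658 counts), so that Rhoa was 10.1 and 9.20 times as high. Centralspindlin, which recruits Ect2, is made of Racgap1, at 49.5 and 50.3 TPM (11086 and 13952 counts), and the kinesin Kif23, at 28.9 and 27.6 (9260 and 10038). The ratio of the centralspindlin subunits was 1.71 and 1.82, again in the same direction in both libraries. Prc1, which bundles midzone microtubules, stood at 46.5 and 50.1 TPM (11756 and 14520 counts). Prc1 and Racgap1 did not differ beyond their spread, with Racgap1 the higher in each library. Kif20a, a midzone kinesin, stood at 16.2 and 17.9 TPM (5434 and 6787 counts), and Anln, encoding the ring scaffold anillin, at 15.2 and 14.4 (7928 and 8512). Cit (chr5:115845278-116008947), encoding citron kinase of the midbody, was lowest of the step at 10.3 and 9.81 TPM (3199 and 3022 counts, mean 10.1 ± 0.354, SD, n = 2).

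The genes of mitotic chromosomes were the most abundant besides Rhoa. Top2a, the topoisomerase that untangles sister DNA (chr11:98992943-99024189), stood at 174.5 and 190.2 TPM (71191 and 86668 counts, mean 182 ± 11.1, SD, n = 2). Mki67, which coats mitotic chromosomes and is widely used to mark cycling cells (chr7:135689784-135716361), stood at 135.5 and 124.3 TPM (133685 and 139394 counts, mean 129.9 ± 7.86, SD, n = 2). Top2a was the higher in both libraries by gene totals.

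**Figure D3:**
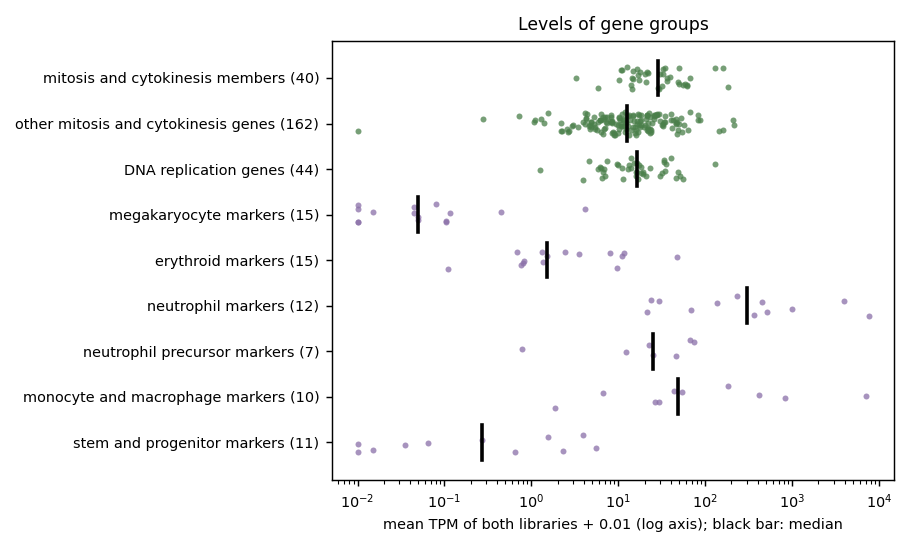
Mean TPM over the 2 libraries plus 0.01, on a log axis, with 1 point per gene and a black bar at the median, for the 40 genes, the comparison lists (green) and cell type markers (purple). The 40 genes have a median of 28.8 TPM, the further mitosis and cytokinesis genes 12.7 and the DNA replication genes 16.2.

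The other genes of division, 162 in number, were mostly expressed as well. At 1 TPM or more in both libraries were 157, at 10 or more 92 (56.8%) and at 50 or more 10, with a median of 12.7 TPM. The median by step was lowest for kinases and cyclins, at 6.92 TPM, and highest for mitotic chromosomes, at 25.9, where the cohesin subunit Stag2 stood at 159.5 and 159.3 TPM and the condensin subunit Smc4 at 135.2 and 151.1. The lowest of that step were the cohesin regulators Cdca5 (6.62 and 6.70) and Pds5b (7.56 and 7.35). In the cytokinesis list the highest were Myh9, encoding the heavy chain of nonmuscle myosin IIA, at 220.8 and 211.4 TPM, and Stmn1, a microtubule destabiliser, at 196.0 and 225.4. Myh10, which encodes the IIB heavy chain, was by contrast among the lowest, at 0.36 and 0.17 TPM (107 and 87 counts), and Chmp4c, of the abscission machinery, had no count, which allows up to 0.00605 and 0.00533 TPM for 3 counts. Between these heavy chain genes the RNA was thus very unequal.

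Among the further kinases and cyclins, Cks2, a small Cdk-binding subunit (35.6 and 46.8 TPM), and Arpp19, an inhibitor of the phosphatase that opposes Cdk1 (37.8 and 31.1), were highest, and Nek6 (0.86 and 0.56) and Pkmyt1, which inhibits Cdk1 (3.84 and 3.91), lowest. In the checkpoint and anaphase list the ends were Ube2s, the chain-extending enzyme of the anaphase-promoting complex (60.6 and 74.0), and its subunit gene Anapc5 (43.7 and 50.9), against Anapc10 (1.97 and 2.40) and Mad2l1bp (2.37 and 2.73). At the kinetochore they were Hjurp, the chaperone that loads Cenpa (46.8 and 47.5), and Spc25, of the Ndc80 complex (33.2 and 31.7), against Cenpw (1.53 and 1.04) and Cenpl (3.21 and 2.15). On the spindle they were Mapre1, which tracks microtubule ends (44.1 and 48.4), and Nusap1 (38.7 and 45.9), against Kif3a (0.83 and 1.36) and Kifap3 (1.45 and 1.67), both of a transport kinesin. Of the regulators of mitotic transcription, Tfdp1 (27.5 and 27.9) and Rbbp4, a MuvB subunit (22.1 and 23.8), were highest and E2f3 (1.37 and 1.38) and E2f1 (2.30 and 2.12) lowest. The DNA replication genes, which serve the preceding S phase, had a median of 16.2 TPM, with 31 of 44 (70.5%) at 10 TPM or more in both libraries. Their highest were Pcna (123.1 and 132.7 TPM), Mcm6 (50.8 and 59.1) and Rrm1 (47.5 and 54.2).

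The transcript tables showed that a gene's TPM did not always lie in transcripts annotated as coding. Transcripts annotated as protein-coding held 89.2% and 89.9% of the summed TPM of the 40 genes, and 96.6% and 97.2% of their counts. Retained-intron models held 5.14% and 5.06% of TPM and processed transcripts 4.29% and 3.98%. In 26 genes the coding share was 90% or more in both libraries, and in 7 it was under 80% in both, Cdk1, Plk4, Fzr1, Cenpa, Ect2, Cit and Top2a. In Plk4 the rest lay wholly in transcripts that GENCODE M21 does not list, so their type is unknown here. The leading transcript was the same in both libraries for 39 of 40 genes, the exception being Plk4, and it was not a coding one in Cdk1, Ect2 and Cit.

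In Cdk1 the coding share of TPM was 47.9% and 39.9%. The retained-intron model Cdk1-204 held 25.6 and 34.7 TPM and the coding model Cdk1-202 20.3 and 20.0. Cdk1-204 is short, with an effective length of 252.6 and 240.5 bases, and its TPM rested on 648 and 950 counts, so that by counts 82.0% and 77.6% of Cdk1 was coding. The coding TPM of Cdk1 was 23.6 and 24.1, below that of Ccnb1, at a ratio of 0.638 and 0.502, whereas the gene totals gave 1.06 and 1.12. The order of Cdk1 and Ccnb1 thus depended on whether noncoding models were included.

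In Cit the processed transcript Cit-211 held 52.8% and 57.2% of TPM on 259 and 296 counts, and the coding TPM was 2.33 and 2.38. By counts, 53.2% and 65.9% of Cit was coding, against 22.6% and 24.2% by TPM. Its coding TPM was the lowest of the 40 genes, below that of Espl1. In Ect2 the retained-intron model Ect2-201 held 7.45 and 8.61 TPM, 48.4% and 49.4% of the gene, and the coding TPM was 7.94 and 8.57, with 65.2% and 64.5% of its counts coding. The coding TPM of Rhoa was therefore 19.0 and 18.4 times that of Ect2, and that of Racgap1 5.77 and 5.48 times. The main coding model of Ect2 differed between libraries, Ect2-207 at 5.03 and 2.96 TPM and Ect2-202 at 2.32 and 5.50. The coding TPM of Top2a was 135.6 and 146.0, and 95.4% and 95.7% of its counts were coding. By coding TPM Rhoa, at 150.9 and 157.8, lay above Top2a in both libraries. Mki67, at 135.5 and 124.3, was level with Top2a in library 1 and below it in library 2. The rank of Top2a as the highest gene thus depended on noncoding models.

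**Figure D4:**
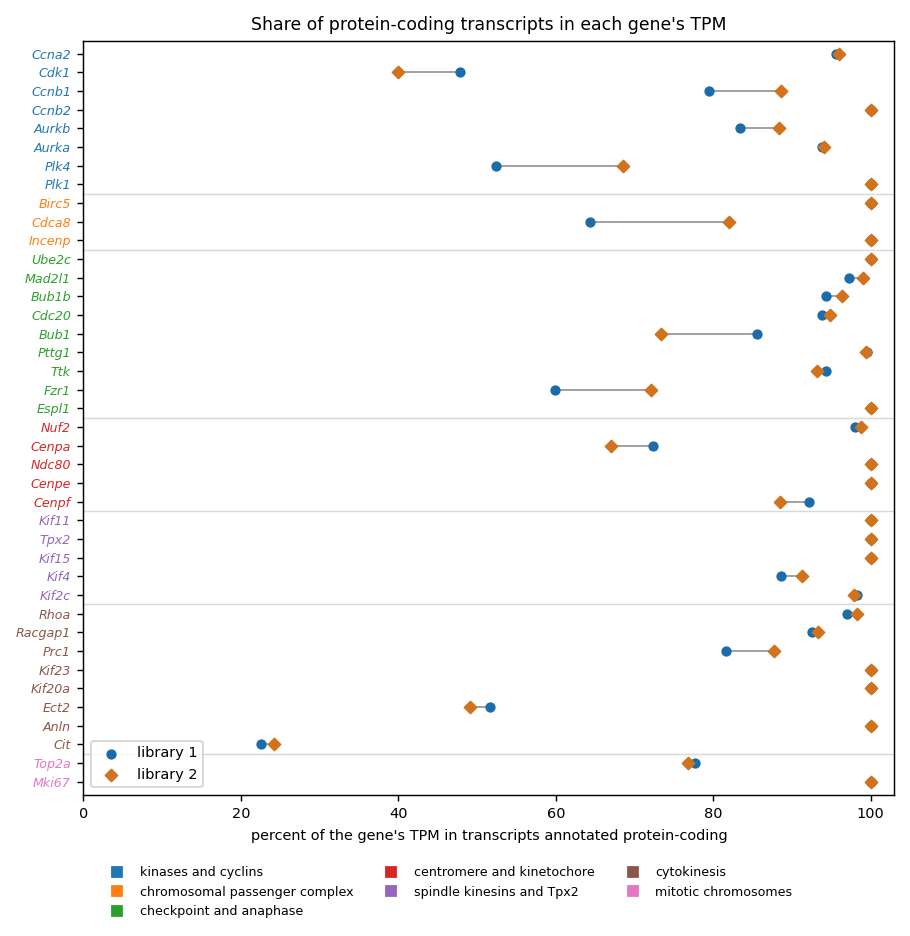
Percent of each gene's TPM in protein-coding transcripts, in library 1 and library 2. Cit, at 22.6% and 24.2%, Cdk1 and Ect2 are the genes whose leading transcript is not a coding one in either library.

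Some spreads between libraries lay in single short models. Within Cenpf, the short coding model Cenpf-202 (effective length 140.3 bases in library 1) had 97.9 counts and 6.96 TPM in library 1 and none in library 2. The long model Cenpf-204 stood at 11.7 and 10.9 TPM on 12832 and 13530 counts. In Cdca8 the processed transcript Cdca8-204 stood at 12.5 and 4.89 TPM, and the coding TPM, 24.1 and 25.9, was closer between libraries than the gene total. The coding TPM was also closer in Bub1, with 11.3 in both, though there the gap lay over several noncoding models. In Plk4 the transcripts that could be typed as coding stood at 11.8 and 12.1 TPM, below the coding TPM of Plk1, 14.4 and 14.3. The widest gap within Plk4 was in an untyped transcript that was not short. Its effective length was 1376 and 1363 bases, and it stood at 7.69 and 4.05 TPM. The part of the different size ranges in these gaps was not tested. Whole expected counts in both libraries, within 0.005, were found for 37 genes, which a gene has where no read is split with another. The exceptions were Ccnb1, Cdc20 and Rhoa. Ccnb1 had a whole count in library 1, 6924, and 9445.96 in library 2, and its pseudogene Ccnb1-ps took 26.3 and 16.6 counts. Whether strand was used in counting is not given in the sources used here. Reads of Prc1, Kif20a, Cdca8, Ccna2, Kif4, Cdc20 and Rhoa may therefore include some from genes that overlap them on the other strand. The largest such neighbour by counts was Cdc23, beside Kif20a, with 3607 and 4200 counts and 2327 shared bases.

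The libraries were then compared gene by gene with a two-sided exact binomial test on counts scaled by the TMM method, adjusted by Benjamini-Hochberg over the 12081 nuclear protein-coding genes that averaged at least 10 counts. With 1 library on each side this test covers counting error alone and compares these libraries, not a condition. At an adjusted p under 0.05, 31 of the 40 genes were called (77.5%), against 65.6% of all tested genes. Higher in library 2 were 21 (33.1% of all tested genes) and higher in library 1 were 10 (32.6% of all). None reached a 2-fold ratio, against 9.96% of all genes tested, and none reached 1.5-fold, against 18% of all. All 40 had a mean count of 500 or more. Among the 7945 genes at that depth, a limit chosen after the data were seen, 3% reached 1.5-fold and 68.2% were called by the binomial test. The count of 0 is thus near the background at that depth. The edgeR exact test with an assumed biological coefficient of variation of 0.1 called 0 of 40, of which 0 had an unadjusted p under 0.05, against 12.9% of all genes tested and 2.89% of those at a mean count of 500 or more.

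The differences were small. The median log2 ratio of library 2 to library 1, by scaled counts, was 0.06 over the 40 genes, 34 lay within 0.2 of 0, and the range ran from -0.33 in Cit to 0.25 in Kif2c. Called were 66.7% of the checkpoint and anaphase genes and 80% of the spindle genes, beside 65.6% of all genes tested, and no call held under the edgeR test. By direction, all 6 called checkpoint and anaphase genes, of 9, and all 4 called spindle genes, of 5, were higher in library 2. Of all genes tested, 33.1% were called higher in library 2. Calls in the other steps were mixed. Higher in library 2 were 4 of 6 called kinases and cyclins, 4 of 7 cytokinesis genes and 1 of 4 kinetochore genes. The same held for 1 of 2 called passenger genes and 1 of 2 genes of mitotic chromosomes. A difference in direction between steps was not tested. The called checkpoint, anaphase and spindle genes were led by Kif2c (1.19-fold, 95% counting interval 1.13 to 1.24), Pttg1 (1.18-fold, 1.05 to 1.32) and Ttk (1.16-fold, 1.10 to 1.22). Of the kinetochore genes Ndc80 was higher in library 2 (1.17-fold, 1.12 to 1.22), and Cenpe, Cenpf and Nuf2 were higher in library 1. Among the cyclins Ccnb1 had a ratio of 1.15 (1.11 to 1.19). The lowest ratios were those of Cit (0.796, 0.757 to 0.837), Mki67 (0.879, 0.872 to 0.886), Plk4 (0.880, 0.847 to 0.916) and Cenpf (0.893, 0.872 to 0.915). Rhoa, at 0.995 (0.979 to 1.01), and Birc5, at 1.01 (0.970 to 1.05), were not called. For Cit the adjusted p of the exact binomial test was 3.3e-18 and for Kif2c 1.6e-11.

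**Figure D5:**
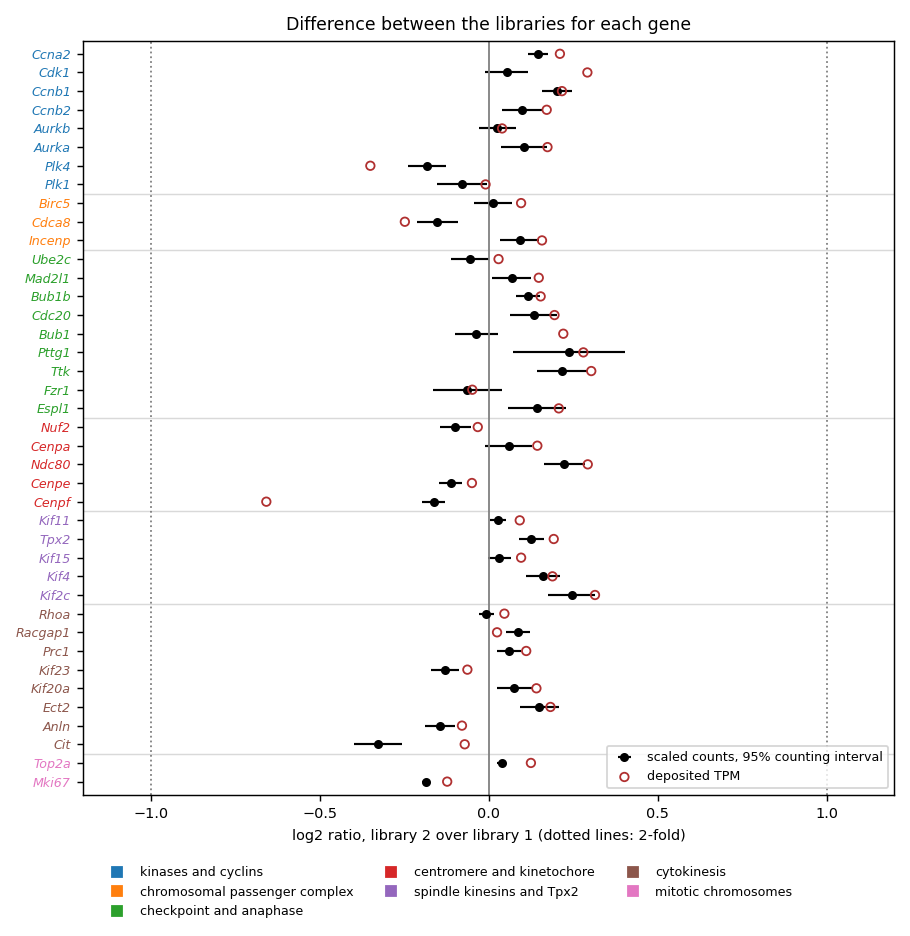
Ratio of library 2 to library 1 for each of the 40 genes, as log2 of scaled counts, with 95% counting intervals (black), and of deposited TPM (open circles), with dotted lines at 2-fold. The count ratios run from -0.33 in Cit to 0.25 in Kif2c, and none reaches 1.5-fold, while by TPM Cenpf lies apart at -0.66.

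Beyond the 40 genes, 100 of 161 tested mitosis and cytokinesis genes (62.1%) and 25 of 44 DNA replication genes (56.8%) were called, near the background of 65.6%, with median log2 ratios of 0.003 and 0.02. None of the 161 reached 2-fold, and 4 reached 1.5-fold by scaled counts, Cenpl, Cenpm, Cenpw and Kif24. Markers of erythroid cells and of T and NK cells moved more. Over all genes tested, 65.6% were called, 32.6% as higher in library 1 and 33.1% in library 2, and 9.96% reached 2-fold. Of 15 erythroid markers 14 were called, all higher in library 1, and 9 of them passed 2-fold. Their summed TPM was 134.5 in library 1 and 66.9 in library 2. Of 9 T and NK cell markers 8 were called, all higher in library 1, with a summed TPM of 35.1 and 21.4. A ratio of 2-fold or more in either direction was seen in 4 of the 9. Of 12 neutrophil markers 10 were called, all higher in library 1, with a summed TPM of 14795 and 13959. Of 10 monocyte and macrophage markers 7 were higher in library 2 and 3 in library 1, with a summed TPM of 7431 and 9760. Neither the neutrophil nor the monocyte and macrophage list had a marker at 2-fold, and 1 neutrophil marker alone reached 1.5-fold. None of the markers of these 4 lists was at 0 in both libraries. Their part in the ratios of the mitotic genes was not tested. By TPM rather than scaled counts the 40 genes had 29 higher values in library 2 and a median log2 ratio of 0.13, against 0.07 over all genes tested and 0.16 for a gene at a constant share of protein-coding TPM. On that scale Cenpf alone passed 1.5-fold, at a log2 TPM ratio of -0.66, against -0.16 by scaled counts.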

How the data were processed

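Primary cells labelled megakaryocyte were profiled by total RNA-seq in 2 libraries of 1 group. The authors estimated a read count per gene and per transcript, and the deposited expected counts, per the file headers, are not normalized. They also deposited effective lengths in bases, TPM per gene and per transcript, and each transcript's share of its gene's TPM in percent. Reads were assigned to mm10 with GENCODE M4, per the deposited text files; the aligner and quantifier are not given in the sources used here. Names and transcript types came from GENCODE M21, which matched 42462 of 43346 mouse gene IDs. The members and lists were chosen with earlier results of these data known. All 40 members are named; of the further division genes, the 2 highest and 2 lowest per step and any past the fold rule; of markers, the 2 highest per cell type; of replication genes, the 3 highest.

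Levels were compared as TPM, which is per length. Counts were rounded, scaled by TMM (edgeR 4.0.16, R 4.3.3) and compared by a two-sided exact binomial test (SciPy 1.17.1) at a mean count of 10 or more, with Benjamini-Hochberg adjustment and a threshold of 0.05. Intervals are 95% Clopper-Pearson intervals. Intervals and limits of 3 counts cover counting error only, since reads can be PCR copies of 1 molecule. The library comparison was tested on simulated Poisson counts for 12090 genes. It recovered 81 of 99 genes changed 2-fold and 90 of 100 changed 1.5-fold, and called 9 of 11891 unchanged ones. The simulated libraries differed by counting error alone, which is what the test assumes. They cannot show how often it calls genes where libraries also differ in other ways. Alternatives were the authors' posterior mean TPM, TPM rescaled over coding genes, coding transcripts alone, other thresholds, DESeq2 1.42.0 size factors, summed counts, edgeR's exact test and other promoter windows.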

Additional observations from a re-analysis of the deposited data

How the results depend on the processing

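The median over the 40 genes, 28.8 TPM, moved to 113.9 when TPM was rescaled to nuclear protein-coding genes alone, and to 22.9 for protein-coding transcripts alone. The number at or above the threshold in both libraries fell from 36 at 10 TPM to 22 at 20 TPM. The count of genes called between the libraries fell from 31 to 0 under edgeR's exact test with an assumed coefficient of variation of 0.1, where the lowest adjusted p was 0.392; that assumed spread is larger than counting error by construction. Leaving out either library gave a median of 28.6 to 29.0 TPM and 37 genes at 10 TPM or more. DESeq2 size factors called 31 and summed counts 30, the posterior mean TPM gave a median of 28.6, and a promoter window of 150 bases before the start left the CHR share at 71.4%. No paired analysis was possible because there is only 1 group. Leaving out a library from the comparison of the libraries is not possible. With 2 libraries, the spread has 1 degree of freedom, and with no second condition no result here is tested across conditions.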
